A study of Mus musculus with 6 samples.

Results

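Collagens are the main proteins of the muscle's connective tissue, and the genes described here are the collagen chains measured in calf muscle of mice that overexpress integrin alpha7 and of wild type mice. A gene was a member where its symbol had the form Col, a number, a and a number, and where a probe set carried that symbol alone. This gave 42 genes of 18193 named on the array, on 82 probe sets, and each gene was read from its brightest probe set, the highest by mean over all arrays. By the kind of collagen they build, 11 were fibrillar chains, 6 type IV chains, 5 type VI chains and 20 others.

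RNA came from the gastrocnemius and soleus muscles of non-fasted female mice aged 5 weeks on a SJ6/C57BL6 background. The groups were integrin alpha7 transgenic mice and their wild type controls, whose titles also carry the word Intronic, of unstated meaning. Each group had 3 Affymetrix Mouse430_2 arrays, and each array read a pool of equal RNA amounts from 6 animals, 18 per genotype. Pooling averages the spread between single animals. Neither the promoter of the transgene nor the cells it is active in is given in the sources used here. In whole muscle, fewer cells of a type and less RNA per cell cannot be told apart.

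A collagen molecule is built from 3 chains wound into a triple helix. Fibrillar collagens such as types I and III form the tensile fibres between muscle fibres, type IV forms the sheet-like network of the basement membrane around each fibre and vessel, and type VI forms beaded filaments that link that membrane to the interstitium. In muscle most collagen is made by fibroblasts, with contributions from vessels, tendon and the fibres themselves. Integrin alpha7 itself binds laminin in the basement membrane rather than collagen.

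The signal of Itga7 was 254, 308 and 314 on the wild type arrays and 2498, 2144 and 2072 on the transgenic ones, 7.32-fold higher. All 8 muscle fibre markers were above the filter, on bright probe sets with mean signals of 13133 to 22470. The highest signal on any array, 23952, was that of the marker Tnnt3 on wild type replicate 3. None of the 8 markers passed, but all 8 had negative differences, with a median of -0.12, where 52.6% of all kept probe sets were negative. For 4 of them all transgenic arrays lay below all wild type arrays, against 7.52% of all kept probe sets. The summed signal of these 8 markers was 146535 to 150363 in wild type and 141634, 135634 and 133970 on transgenic replicates 1, 2 and 3. Its part in the collagen values was not tested. Array medians were 34.0 to 38.4. Transgenic replicate 3 stood apart for much of the matrix, and the plot of intervals gives each collagen gene with and without it.

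In RefSeq's promoter table of assembly GRCm38.p6, 33 of the 42 genes matched, and the bases before the gene's start are shown for 4 of them. Col1a2, Col27a1 and Col15a1 had the smallest p between genotypes, and Col3a1 had the narrowest interval around its difference. The sequences run 5′ to 3′ on the gene's own strand, which is the plus strand for all 4. Capitals mark a CCAAT box, a GC box with the letters GGGCGG or a TATA box with the letters TATAAA, read on either strand. They lie at chr6:4505368-4505617 for Col1a2, chr4:63215162-63215411 for Col27a1, chr4:47207762-47208011 for Col15a1 and chr1:45311288-45311537 for Col3a1.
Col1a2: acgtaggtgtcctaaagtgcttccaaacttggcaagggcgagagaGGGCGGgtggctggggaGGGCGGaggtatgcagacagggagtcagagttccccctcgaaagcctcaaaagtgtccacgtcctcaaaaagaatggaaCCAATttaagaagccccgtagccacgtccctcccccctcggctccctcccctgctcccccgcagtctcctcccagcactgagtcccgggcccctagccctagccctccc
Col27a1: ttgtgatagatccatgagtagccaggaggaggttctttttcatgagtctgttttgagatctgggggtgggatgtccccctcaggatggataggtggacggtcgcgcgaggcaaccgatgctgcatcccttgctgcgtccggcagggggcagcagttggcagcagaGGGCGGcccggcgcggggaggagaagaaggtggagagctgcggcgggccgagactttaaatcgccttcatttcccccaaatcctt
Col15a1: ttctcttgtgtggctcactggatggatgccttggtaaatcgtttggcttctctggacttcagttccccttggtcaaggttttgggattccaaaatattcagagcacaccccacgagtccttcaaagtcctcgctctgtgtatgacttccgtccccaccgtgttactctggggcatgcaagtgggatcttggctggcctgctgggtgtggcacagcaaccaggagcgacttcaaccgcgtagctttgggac
Col3a1: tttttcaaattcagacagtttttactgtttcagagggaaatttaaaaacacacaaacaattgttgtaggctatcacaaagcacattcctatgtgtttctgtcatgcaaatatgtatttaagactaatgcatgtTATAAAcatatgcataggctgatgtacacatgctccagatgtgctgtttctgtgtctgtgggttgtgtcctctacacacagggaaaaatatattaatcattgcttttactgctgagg
The Col1a2 stretch held 1 CCAAT and 2 GC boxes, the Col27a1 stretch 1 GC box, the Col3a1 stretch 1 TATAAA and the Col15a1 stretch none of these. Over the 33 matched collagen genes, GGGCGG was found for 20, or 60.6%, against 32.7% of 32851 promoter stretches of the same length, CCAAT for 13, or 39.4%, against 33.9%, and TATAAA for 5, or 15.2%, against 12.4%. A gene with more than 1 stretch was counted where any of them held the motif, while the shares over all stretches count each stretch. The 33 genes had 36 stretches, so the 2 kinds of share are not strictly alike. These shares describe letters and no binding.

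No collagen gene passed the threshold between genotypes. Of the 42 genes, 34 lay above the filter, and 0 of them had an adjusted p of 0.05 or less in limma, where 0.122% of all 27022 kept probe sets passed. Over the brightest kept probe sets of 12940 named genes the share was 0.147%. The smallest adjusted p was 0.433, for Col1a2. At an unadjusted p under 0.05 there were 2 of the 34, Col1a2 and Col27a1, both lower in transgenic muscle. The share over all kept probe sets was 7.86% in either direction and 4.38% lower, and 8.21% over the brightest probe sets of named genes. This count reads the brightest probe set of each gene. Dimmer probe sets of Col1a1, Col4a3 and Col8a1 were also lower at that p, and none of them passed after adjustment. Differences were negative for 19 and positive for 15, where 52.6% of all kept probe sets were negative, and their median was -0.01 on the log2(signal + 16) scale, as was the median of all kept probe sets. With every array scaled to the same median, 10 of the 34 were negative, with a median of 0.05 for the collagens and for all kept probe sets alike. For 1 of the 34 genes, Col27a1, all transgenic arrays lay below all wild type arrays. Over all kept probe sets 13.4% had no overlap, and 7.52% had none with the transgenic arrays lower, while 14.3% of the brightest probe sets of named genes had no overlap.

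The measured intervals bounded the change for the brighter chains. For 20 of the 34 genes the whole 95% interval lay within 0.5 log2 units of no difference, that is, within a change of 1.41-fold either way, and this held for 47.9% of all kept probe sets and 57.6% of the brightest probe sets of named genes, a share close to that of the collagens. For 33 genes it lay within 1 unit, as for 91.3% of all kept probe sets and 93.2% of the brightest of named genes, Col23a1 being the exception with an interval of -0.54 to 1.07 around a mean signal of 29.4. The differences by gene are shown in the plot of intervals.

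**Figure D1:**
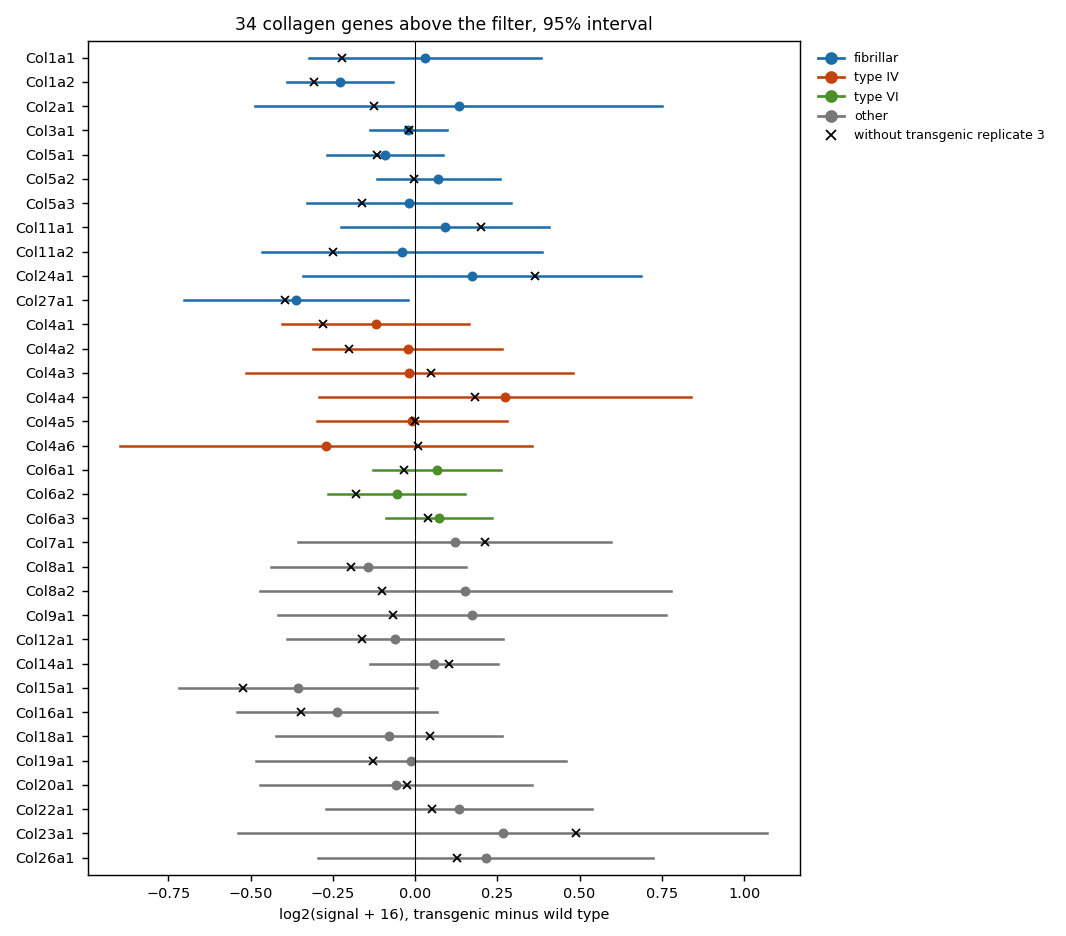
Difference between transgenic and wild type muscle in log2(signal + 16) for the 34 collagen genes above the filter, by class, with 95% intervals from limma (3 against 3 arrays). Crosses give the difference without transgenic replicate 3. The interval excludes 0 only for Col1a2 and Col27a1, neither of which passed after adjustment.

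Type I collagen, the main tensile collagen, is made of 2 Col1a1 chains and 1 Col1a2 chain. The signal of Col1a2 (probe set 1450857_a_at) was 8314, 8445 and 7485 on the wild type arrays and 6663, 6373 and 7679 on the transgenic ones. The transgenic arrays were lower on average, but transgenic replicate 3 lay above wild type replicate 3, so the groups overlapped. The log2 difference was -0.23, 95% interval -0.39 to -0.07, adjusted p 0.433. Without transgenic replicate 3 it was -0.31, with an adjusted p of 0.116. Within the first of the 2 rounds of hybridisation, which held replicates 1 and 2 of each genotype, it was -0.36 with an adjusted p of 0.0488, past the threshold as were 0.111% of all kept probe sets. This split was added once the values were known, and the single pair of arrays of round 2 gave 0.04. A second Col1a2 probe set, 1423110_at, with a mean signal of 6184, gave a difference of -0.00, with an interval of -0.18 to 0.18.

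Col1a1 read 3297, 3664 and 3510 in wild type and 3047, 2924 and 5059 in transgenic muscle. Transgenic replicates 1 and 2 lay below every wild type array and replicate 3 above all of them. The difference was 0.03, with an interval of -0.32 to 0.38, and it was -0.22 without transgenic replicate 3 (adjusted p 0.328). The dimmer Col1a1 probe set, 1455494_at, read 1011, 1289 and 976 against 922, 875 and 814. There the genotypes did not overlap, transgenic replicate 3 was the lowest array, and the difference was -0.31 with an adjusted p of 0.462. The probe sets of this gene thus placed transgenic replicate 3 at opposite ends.

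Col3a1, the homotrimeric chain of type III collagen, which forms fine reticular fibres with type I, had the narrowest interval of all members. Its signal was 9838, 11161 and 10380 in wild type and 10190, 10437 and 10280 in transgenic muscle. All transgenic arrays lay inside the wild type range, and the difference was -0.02, with an interval of -0.14 to 0.10. Type V chains, which regulate the diameter of type I collagen fibrils, also differed little. Col5a1 read 823, 953 and 899 in wild type and 802, 838 and 863 in transgenic muscle, with overlap, a difference of -0.09. Col5a2 read 1337, 1436 and 1248 against 1367, 1303 and 1562, a difference of 0.07 that was -0.00 without transgenic replicate 3. Neither passed (adjusted p 0.822 and 0.882 in limma).

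Col27a1, a minor fibrillar chain, was the member whose groups did not overlap. It read 131, 131 and 93.8 in wild type and 83.9, 87.2 and 92.6 in transgenic muscle. Wild type replicate 3 and transgenic replicate 3 were nearly level. The difference was -0.36, 95% interval -0.70 to -0.02, adjusted p 0.605. With quantile normalization or equal array medians its arrays overlapped. A dimmer Col27a1 probe set had non-overlapping arrays in the opposite direction, at 32.4 to 46.8 in wild type and 49.1 to 50.5 in transgenic muscle, a difference of 0.23 with an adjusted p of 0.816. The other fibrillar chains, Col2a1, Col5a3, Col11a1, Col11a2 and Col24a1, had differences between -0.04 and 0.17. The median of the fibrillar class was -0.02, with 6 of 11 chains negative. Without transgenic replicate 3 it was -0.13, with 9 of 11 negative, against 51.2% of all kept probe sets. Without wild type replicate 2 it was 0.05, with 4 of 11 negative, against 52.5% of all kept probe sets.

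**Figure D2:**
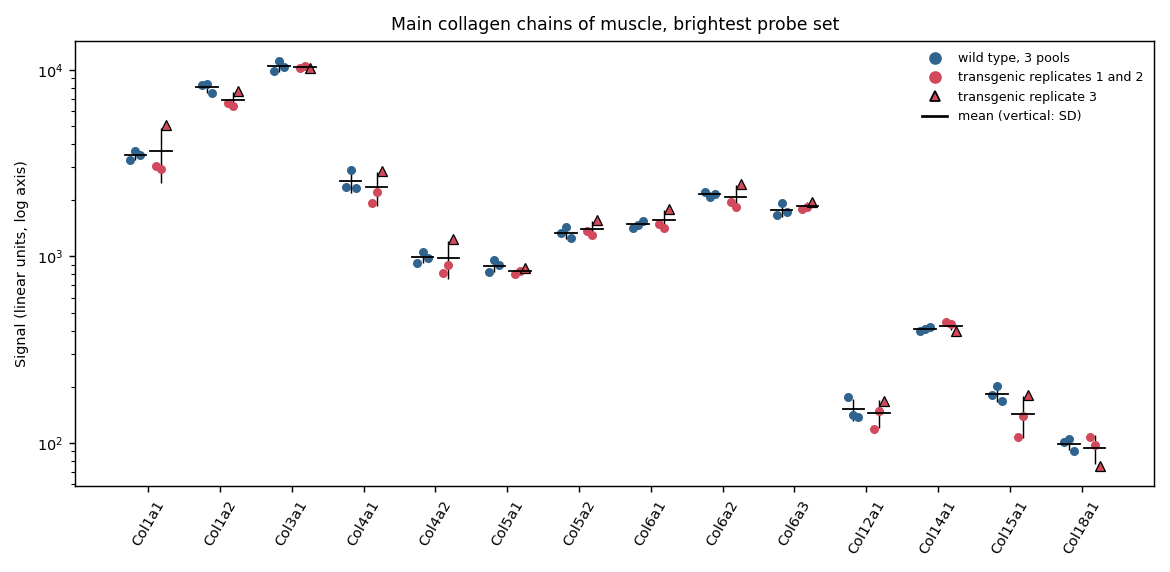
Signal of 14 collagen chains that make up most of the muscle matrix, in linear units on a log axis, brightest probe set of each gene. Points are single arrays (pools of 6 animals), horizontal bars the mean of 3 arrays and vertical bars the SD. Transgenic replicate 3, drawn as a triangle, is the highest of all arrays for Col1a1 at 5059 and for Col4a2 at 1245.

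Type IV chains form the basement membrane, in which the ligands of integrin alpha7 lie. The common network is built from Col4a1 and Col4a2, whose genes are neighbours on chromosome 8 with opposite directions. Their table windows of promoter and start share 78 bases, which hold a GC box. Col4a1 read 2356, 2903 and 2319 in wild type and 1938, 2209 and 2880 in transgenic muscle. Col4a2 read 925, 1061 and 975 against 820, 895 and 1245. For both chains transgenic replicate 1 was the lowest array and replicate 3 the highest of its group. The differences were -0.12 for Col4a1, with an interval of -0.40 to 0.16, and -0.02 for Col4a2, with an interval of -0.31 to 0.26. Without transgenic replicate 3 they were -0.28 and -0.20, with adjusted p of 0.462 and 0.574, and without transgenic replicate 1 they were 0.01 and 0.10.

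The remaining type IV chains, which form the networks of specialised basement membranes, were dim apart from Col4a5. Col4a5 read 159 ± 24.3 in wild type and 157 ± 5.23 in transgenic muscle (SD, n = 3), a difference of -0.01. Col4a6, which lies next to Col4a5 on the X chromosome, read 36.9, 75.4 and 74.2 against 54.7, 66.5 and 26.7, a difference of -0.27 with an interval of -0.90 to 0.36. Transgenic replicate 3 was its lowest array, and without it the difference was 0.01. Col4a4 read 39.7, 28.5 and 19.4 against 41.9, 28.1 and 44.8, a difference of 0.27. Col4a3 gave -0.02 on its brightest probe set, at a mean signal of 40.7. Its other probe set read 62.1, 51.2 and 53.8 in wild type and 5.47, 27.0 and 28.8 in transgenic muscle, without overlap. There the difference was -1.05, 95% interval -1.70 to -0.40, adjusted p 0.358, the largest in size among the 60 kept collagen probe sets. The median of the 6 type IV genes was -0.02.

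Type VI collagen is assembled from Col6a1, Col6a2 and Col6a3, and loss of any of these chains causes muscle disease. Col6a1 read 1425, 1480 and 1552 in wild type and 1491, 1413 and 1792 in transgenic muscle. Col6a2 read 2212, 2077 and 2167 against 1950, 1848 and 2459, and Col6a3 read 1660, 1942 and 1734 against 1806, 1842 and 1958. Transgenic replicate 3 was the highest of the 6 arrays for all 3 chains. The differences were 0.07, -0.06 and 0.07, and the 3 intervals together ran from -0.26 to 0.26, that is, 0.833-fold to 1.20-fold. Without transgenic replicate 3 the values were -0.03, -0.18 and 0.04. Col6a4 and Col6a5, the alternative chains, were below the filter, at a mean signal of 9.42 and 16.6.

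Col15a1, a multiplexin of the muscle basement membrane zone, read 181, 202 and 167 in wild type and 107, 140 and 180 in transgenic muscle. Transgenic replicates 1 and 2 lay below every wild type array and replicate 3 among them. The difference was -0.36, 95% interval -0.72 to 0.01, adjusted p 0.643, and it was -0.52 without transgenic replicate 3, with an adjusted p of 0.353. Col18a1, the related multiplexin whose end fragment is endostatin, read 101, 105 and 90.8 against 108, 97.4 and 75.7, a difference of -0.08. Here transgenic replicate 3 was the lowest array, and without it the difference was 0.04. A second Col18a1 probe set, 1418237_s_at, with a mean signal of 86.15, went the other way. Transgenic replicate 3 was its highest array, and its difference was 0.06, or -0.08 without that array.

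Among the fibril-associated chains, Col12a1 read 176, 142 and 137 in wild type and 119, 148 and 167 in transgenic muscle, and Col14a1 read 400, 408 and 417 against 447, 432 and 399. Both overlapped, with differences of -0.06 and 0.06, or -0.16 and 0.10 without transgenic replicate 3. Col16a1, of the same family, read 203, 163 and 185 against 134, 147 and 180, a difference of -0.24 with an adjusted p of 0.729. Col8a1, a short-chain network collagen found in vessel walls, had negative differences on all 3 kept probe sets. The brightest read 203, 242 and 210 against 161, 219 and 212, at -0.14 with an adjusted p of 0.840. The middle one read 136, 121 and 124 against 85.0, 96.8 and 107, without overlap, at -0.36 with an adjusted p of 0.556, and the dimmest gave -0.63 with an adjusted p of 0.618.

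The 8 other kept members of this class had mean signals of 29.4 to 92.7 and differences between -0.06 and 0.27. Col26a1 read 36.7, 33.3 and 56.8 against 37.0, 58.3 and 59.1, a difference of 0.22 with an interval of -0.29 to 0.72. The median of the 14 kept members was 0.02. Of the 20 genes in this class 6 lay below the filter, at mean signals of 1.71 to 20.7, among them Col10a1 of hypertrophic cartilage, Col17a1 of skin hemidesmosomes, Col9a2 and Col9a3 of cartilage. The median of each of the 4 classes lay closer to 0 than the SD of that class's median between arrays of a genotype, which was 0.09 for fibrillar, 0.15 for type IV, 0.13 for type VI and 0.10 for the other chains.

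Probe sets of the same collagen gene did not always point the same way. Of 21 genes with more than 1 kept probe set, 10 had differences of the same sign on all and 11 did not. The widest spreads were 1.03 log2 units for Col4a3, 0.66 for Col14a1, 0.60 for Col27a1 and 0.49 for Col8a1. The choice of probe set thus set the sign for the 11 genes of mixed sign, among them Col1a1, Col4a1, Col4a5, Col6a2 and Col27a1.

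**Figure D3:**
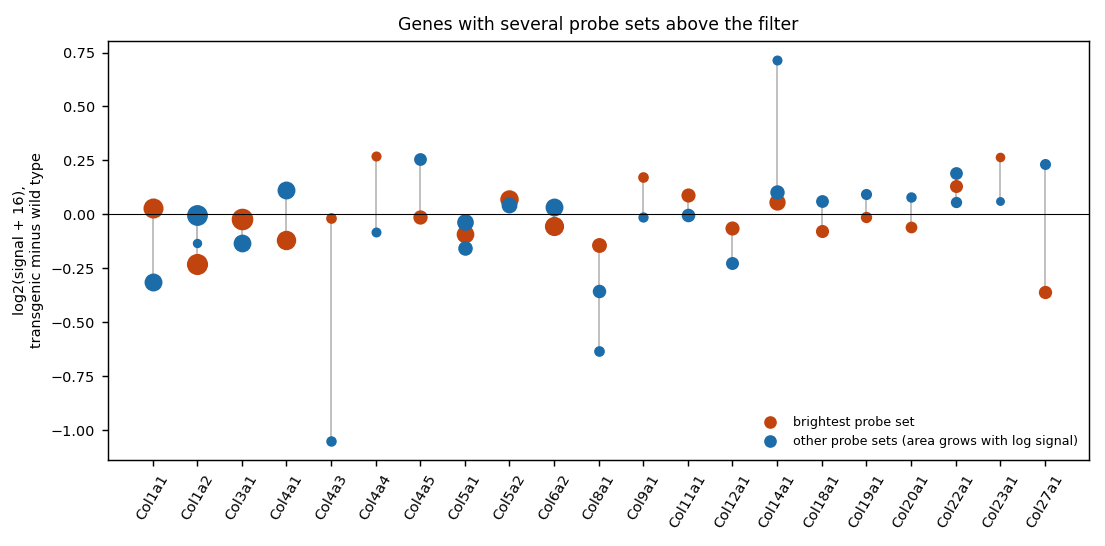
Difference between transgenic and wild type muscle in log2(signal + 16) for each probe set above the filter, for the 21 collagen genes with more than 1. Larger points are brighter probe sets, and orange marks the brightest of a gene. Col8a1 lies below 0 on all 3 of its probe sets, while Col1a1, Col4a1 and Col27a1 lie on both sides.

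Transgenic replicate 3 was the highest array for 14 of the 34 genes and wild type replicate 2 for 10, where over all kept probe sets these arrays were highest for 19.4% and 17.4%. Over the brightest probe sets of named genes the shares were 22.1% and 17.2%. Transgenic replicate 3 was also the array most often lowest over all kept probe sets, for 22.5%, and it was lowest for 4 of the 34 genes. Transgenic replicate 1 was the lowest for 10, against 15.9% of all kept probe sets. Compared with the mean of the other transgenic arrays, replicate 3 was 1.70-fold as high for Col1a1, 1.45-fold for Col4a2, 1.39-fold for Col4a1 and 1.30-fold for Col6a2, but 0.997-fold for Col3a1. Without it, 11 of the 14 main chains of muscle matrix were negative, with a median of -0.14, and 6 of them were lower at an unadjusted p under 0.05, where 51.2% of all kept probe sets were negative and 4.51% were lower at that p. These were Col1a1, Col1a2, Col4a1, Col4a2, Col6a2 and Col15a1, and 0 of the 34 genes passed after adjustment, against 0.144% of all kept probe sets. With all 6 arrays 1 of the 14 was lower at that p, against 4.38% of all kept probe sets. Transgenic replicate 3 was singled out by its values, and leaving out a high array lowers the group's mean and its spread. The count of 6 is therefore no separate support for a difference. Without wild type replicate 2 the median of the same 14 chains was 0.01, with 7 negative against 52.5% of all kept probe sets. There 1 of the 14 was lower at that p, against 3.38% of all kept probe sets. The direction thus turned with the array left out.

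**Figure D4:**
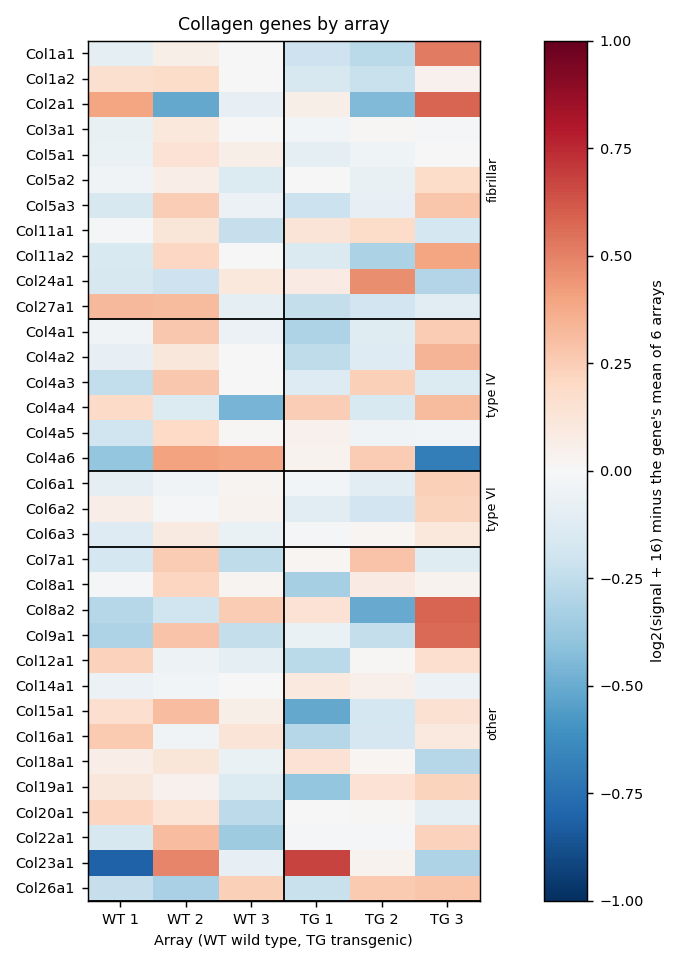
Signal of the 34 collagen genes above the filter on each array, as log2(signal + 16) minus the gene's mean over 6 arrays, ordered by class. Red is above and blue below that mean. Transgenic replicate 3 is red for Col1a1, Col4a1, Col4a2 and all 3 type VI genes, and transgenic replicates 1 and 2 are blue for Col1a1, Col1a2, Col4a1, Col4a2 and Col15a1.

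Markers of matrix-producing cells moved between the arrays as well. The 10 tendon and cartilage markers, all kept, summed to a signal of 5014 to 5370 on the wild type arrays, 5047 and 4487 on transgenic replicates 1 and 2 and 6796 on replicate 3, which was the highest array for 7 of them. Tnmd, a tendon membrane protein, read 1405 there and at most 1257 elsewhere, and Thbs4, a tendon thrombospondin, read 1818 there and at most 1306 elsewhere. The 10 fibroblast markers, all kept, summed to 29657 to 30030 in wild type and to 26415 to 27789 in transgenic muscle, and none passed. Their median difference was -0.04, with 4 positive and 6 negative. Most of the lower sum lay with the probe sets of Gsn, an actin-severing protein, with a mean of 13632 in wild type and 12409 in transgenic muscle, and of the collagen-binding proteoglycan Dcn, with 8168 and 6578. Both were without overlap, at adjusted p of 0.429 and 0.0825. The 8 endothelial markers, all kept, summed to 1793 to 2027 in wild type and to 1622 to 1756 in transgenic muscle, and none passed. Of their differences 7 were negative and 1 positive, with a median of -0.19, where 52.6% of all kept probe sets were negative. For 4 of these markers all transgenic arrays lay below all wild type arrays, against 7.52% of all kept probe sets. The 4 bone markers with a probe set, all kept, summed to 219 to 246 and 213 to 236. The part of any of these cells in the collagen values was not tested.

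**Figure D5:**
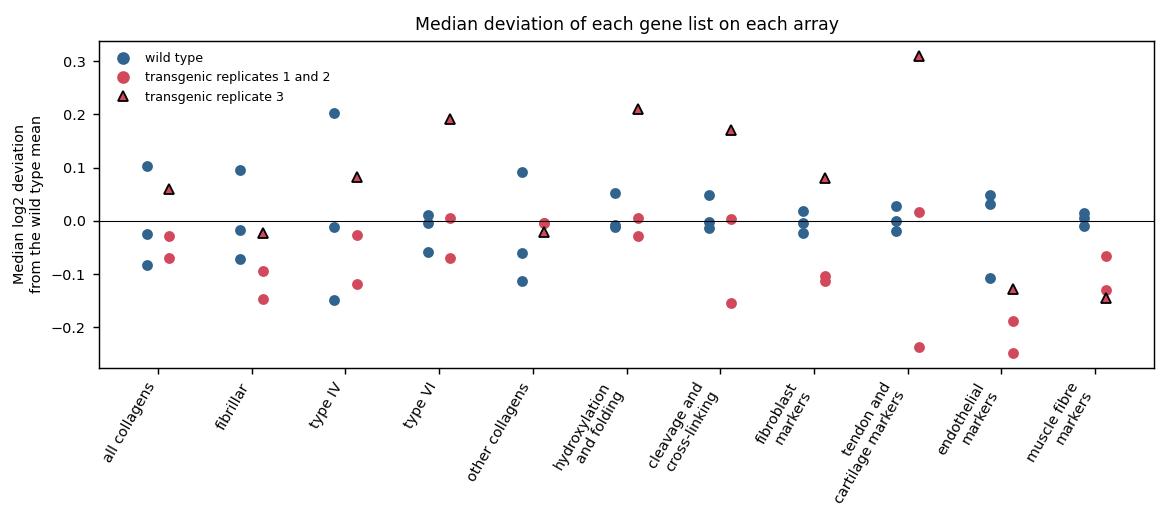
Median over the kept genes of each list of the log2 deviation from the wild type mean, on each array. Circles are wild type and transgenic replicates 1 and 2, and the triangle is transgenic replicate 3, which is highest for the tendon and cartilage markers (0.31), the hydroxylation and folding list (0.21) and type VI (0.19).

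Genes that modify, fold, cleave, bind, break down or regulate collagen came from lists of 65, of which 54 were kept. None passed over all probe sets, and 5 had an unadjusted p under 0.05, a share near the 7.86% of all kept probe sets. Collagen chains are hydroxylated and folded in the endoplasmic reticulum, and of 17 kept genes of that step 11 had positive and 6 negative differences, with a median of 0.03. For Plod3 all transgenic arrays lay below the wild type arrays, at 281.6, 319.3 and 330.5 against 334.1, 358.4 and 341.2. Its difference was -0.15, with an adjusted p of 0.774 in limma. The smallest p values belonged to 3 genes whose transgenic arrays all lay above the wild type arrays. Over all kept probe sets 5.87% lay above in this way and 7.52% below. P4hb, the disulphide isomerase that is also the beta subunit of prolyl hydroxylase, read 2266, 2310 and 2162 in wild type and 2671, 2654 and 2763 in transgenic muscle, a difference of 0.26 with an adjusted p of 0.190. Ppib, a prolyl isomerase of the same compartment, read 1060, 1136 and 1089 against 1214, 1309 and 1451, a difference of 0.27 with an adjusted p of 0.385. Serpinh1, the collagen-specific chaperone HSP47, read 1266, 1276 and 1287 against 1386, 1461 and 1749, a difference of 0.25 with an adjusted p of 0.475. Without transgenic replicate 3 Serpinh1 gave 0.16 with an adjusted p of 0.581. Transgenic replicates 1 and 2, on which the brightest probe sets of Col1a1 and Col1a2 were lowest, were thus above all wild type arrays for these 3 genes. On the second Col1a1 probe set, 1455494_at, transgenic replicates 1 and 2 also lay below all wild type arrays, with replicate 3 lower still. The second Col1a2 probe set, 1423110_at, did not share that order. It read 5932 on transgenic replicate 1 and 5767 on wild type replicate 1.

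Of the 10 kept genes of propeptide cleavage and cross-linking, 5 were positive and 5 negative, with a median of -0.01. Lox, which cross-links collagen, read 457, 474 and 469 in wild type and 363, 379 and 513 in transgenic muscle. Transgenic replicate 3 again lay apart from the other transgenic arrays, above all wild type arrays. Its difference was -0.17 (adjusted p 0.791), and without that array it was -0.32 (adjusted p 0.353). Sparc, a collagen-binding matrix protein, read 8431, 7907 and 8276 against 7627, 7666 and 8213, a difference of -0.07, or -0.10 without transgenic replicate 3. The cross-linking enzyme Loxl4 read 31.1, 15.8 and 42.3 against 28.4, 32.0 and 59.4, a difference of 0.29, or 0.06 without transgenic replicate 3. Transgenic replicate 3 was the highest array for 8 of these 10 genes.

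Of the 10 kept collagen receptors and uptake genes, 4 were positive and 6 negative, with a median of -0.09. Itgb1, the beta chain shared by the collagen-binding integrins and integrin alpha7, read 1000, 989 and 1013 in wild type and 806, 772 and 860 in transgenic muscle, at -0.30 with an adjusted p of 0.277. These arrays did not overlap. Of the 10 genes 2 lay wholly lower in this way, Itgb1 and Cspg4, against 7.52% of all kept probe sets. Wholly higher was 1, the collagen receptor Ddr2, against 5.87%. Cspg4 had a difference of -0.22 with an adjusted p of 0.774 in limma. Ddr2 read 234, 244 and 229 in wild type and 245, 257 and 275 in transgenic muscle, at 0.13 with an adjusted p of 0.807. Antxr1, which binds type VI collagen, read 452, 569 and 397 against 334, 355 and 464, at -0.29 with an adjusted p of 0.683. The inhibitory collagen receptor Lair1 read 51.8, 43.5 and 51.8 against 23.8, 49.7 and 29.3, at -0.40 with an adjusted p of 0.732. The arrays of both overlapped. Of 7 kept genes of collagen cleavage and its inhibition, 5 were positive and 2 negative. The gelatinase Mmp9 read 53.0, 71.1 and 93.4 against 95.1, 85.6 and 113, at 0.38 with an adjusted p of 0.673. The membrane collagenase Mmp14 read 260, 289 and 283 against 221, 218 and 263, at -0.23 with an adjusted p of 0.651. The inhibitor Timp1 read 146, 138 and 99.4 against 113, 107 and 110, at -0.18. All 3 overlapped.

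Of 10 growth factor and regulator genes, 4 were positive and 6 negative. Smad3, which carries the signal of transforming growth factor beta, read 849, 793 and 813 against 686, 646 and 701, at -0.27 with an adjusted p of 0.371. Ccn2, a matricellular target of that signal, read 446, 358 and 335 against 471, 423 and 451, at 0.24 with an adjusted p of 0.650. The receptor Tgfbr2 read 830, 1051 and 900 against 795, 905 and 808, at -0.14. Of these 3 genes, Smad3 alone had no overlap.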

How the data were processed

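Each deposited file gives 1 linear intensity for each probe set. The submitters' processing notes name GCOS 1.1.1 as software. For the algorithm behind the signal, none is given in the sources used here. After trimming 2% at each end, the deposited intensity averaged 150.0 on every array, so a change common to most genes would not show. Hybridisation times, per the file headers, fell into 2 rounds set apart by over 30 minutes, each with both genotypes, and the headers name 4 fluidics modules, each with 1 genotype.

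Of 45101 probe sets, 64 controls were left out. Symbols came from the platform annotation, updated by gene identifier to RefSeq's GRCm38.p6 gene table; 34945 probe sets had 1 symbol, 932 several and 9160 none. Probe sets with a mean signal above the 40th percentile, 23.0, were kept, 27022 in all. Signals were analysed as log2(signal + 16), which understates changes of dim transcripts. Signals of different probe sets are not comparable as levels. limma 3.58.1 in R 4.3.3 was fitted to all 6 arrays with a trend of the variance on intensity and without covariates, and two-sided p-values had Benjamini-Hochberg adjustment over all kept probe sets at 0.05. The number of arrays limits the precision, and p-values measure the spread between pools. In 1 simulated run of 27022 probe sets, 20% of 50 changes of 0.5 log2 units were recovered, 48% at 1 and 92% at 2.

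Values per array are given for the main chains of muscle matrix and for the 4 kept genes of each class with the smallest p, and of the pathway lists for the 3 with the smallest p; other genes and probe sets were singled out after their values were seen. The members and lists were chosen with earlier results of these data known. Replicate numbers did not pair the arrays. Alternatives were other offsets, scalings, filters, variance models, blocks, probe set averages and left-out arrays.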

Additional observations from a re-analysis of the deposited data

How the results depend on the processing

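Without 1 array at a time, 0 collagen genes and 0 pathway genes passed, 17 to 39 probe sets passed in all, and the genotypes did not overlap for 2 to 10 of the 34 collagen genes (10 without transgenic replicate 3), against 22.7% to 24.5% of all kept probe sets, since fewer arrays overlap less often. The median differences then ran from -0.05 to 0.06 for all collagens, -0.13 to 0.053 for fibrillar, -0.13 to 0.06 for type IV, -0.03 to 0.10 for type VI and -0.05 to 0.04 for other chains. In hybridisation round 1 alone, chosen after the data were seen, 1 collagen gene passed, Col1a2; 13 did not overlap, against 38.2% of all kept probe sets, and the medians were -0.13 for fibrillar and -0.12 for other chains. The genotypes did not overlap for 0 collagen genes with quantile normalization or equal array medians and for 2 averaging the probe sets of a gene. In all, 51 probe sets passed with equal array medians, 17 with no filter, 1 with no intensity trend and 299 with a random block for the fluidics module, where 2 pathway genes passed; modules held 1 genotype each and the correlation within them was -0.44.

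With the replicate number as a block, 0 collagen genes and 37 probe sets passed; same-numbered arrays had correlations of deviations of 0.00, 0.06 and 0.05, so the numbers were not taken as pairs. The other medians moved by less than the spread between arrays. The cause of these changes was not tested.

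Of 377 values of the 20 named collagens over 19 alternatives, 350 kept sign and side of the threshold and 26 changed sign, all for genes whose interval spans 0. With array weights Col1a1 gave -0.076. In round 1 alone Col1a1 gave -0.22, Col4a6 0.13, Col5a2 -0.054 and Col6a1 -0.0006. Averaging the probe sets of a gene, Col1a1 gave -0.14. With quantile normalization Col3a1 gave 0.017, and with equal array medians Col3a1 gave 0.053, Col4a2 0.049, Col6a2 0.017 and Col12a1 0.0041. With the module block Col4a2 gave 0.015. Without 1 array at a time the ranges were -0.22 to 0.17 for Col1a1, -0.063 to 0.028 for Col3a1, -0.278 to 0.0057 for Col4a1, -0.20 to 0.097 for Col4a2, -0.53 to 0.0094 for Col4a6, -0.0037 to 0.13 for Col5a2, -0.032 to 0.14 for Col6a1, -0.18 to 0.026 for Col6a2, -0.16 to 0.058 for Col12a1 and -0.17 to 0.044 for Col18a1.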
